A study of Homo sapiens with 4 samples.

Results

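The genes described here encode subunits of glycoprotein hormones, and alkaline phosphatases of the placental and other types. They were 10 of the 58735 genes listed in each deposited count file, matched by symbol: the alpha subunit gene CGA, the chorionic gonadotropin beta genes CGB3, CGB5, CGB7 and CGB8, the luteinizing hormone beta gene LHB, and the phosphatase genes ALPP, ALPG, ALPI and ALPL. The 4 RNA-seq libraries were made from MKN-45, by the labels, a line established from a human gastric cancer and grown here in DMEM with serum. Of these, 2 carried a lentivirus labelled as overexpressing the transcription factor SIX2 and 2 carried a control lentivirus, and all were selected with puromycin. The promoter that drives SIX2 is not given in the labels, and the protocol speaks of triplicates where the design text speaks of 2 repeats. The titles number the libraries 1 and 2 within each group, and the labels give the number no further meaning. Whether both numbers are the same stock of cells is not stated, so what a difference by number stands for is not known. The genes were chosen by their measured difference between the libraries numbered 2 and those numbered 1, together with what they encode. Levels by number are therefore given as a description, with no test.

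Chorionic gonadotropin, luteinizing hormone, follicle-stimulating hormone and thyrotropin share the alpha subunit made from CGA. Each hormone pairs it with a beta subunit of its own, and the beta subunit sets which receptor is bound. Placental trophoblast makes chorionic gonadotropin, and the pituitary makes the others. The alkaline phosphatases are enzymes anchored at the cell surface by a lipid. ALPP is the placental form, ALPG the germ cell form, ALPI the intestinal form and ALPL the form found in liver, bone and kidney. Cancer cells of several origins are known to make placental phosphatase or single hormone subunits.

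The promoters of the genes with the largest counts are shown first. Windows covered the 250 bases before each RefSeq start site (GRCh38.p14). All 10 genes had a window, and ALPL had 3. The CGA window carried a pair of cyclic AMP response elements, the binding motif of the transcription factor CREB. The 30 bases that follow run from position -144 to -115 relative to the RefSeq start at base 87095106 (chr6:87095221-87095250, minus strand), and capitals mark both elements.
CGA: atTGACGTCAtggtaaaaatTGACGTCAtg

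The motif TGACGTCA, which is its own reverse complement, was found in 1.65% of 35116 windows, and at 2 or more positions in 19 of them. None of the windows of the other 9 genes held it. The CGA window also had 1 match to the GATA motif AGATAA, at -156 (9.17% of all windows, both strands searched), and 1 to TATAAA, at -29 (10.7%, both strands). ALPL windows held these motifs too, TATAAA at -29 on the minus strand (start at 21509423) and AGATAA at -120 (start at 21551270). The AP-2 motif GCCNNNGGC (19.8% of all windows, both strands) had no match in the CGA window. It was found once in the windows of ALPG, ALPI and CGB7, and at 2 positions in that of ALPL around the start at 21509423. A match describes letters only, and some GENCODE transcripts of CGA and ALPP start further upstream than the RefSeq start.

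ALPP, ALPG and ALPI lie in tandem on the plus strand of chromosome 2, and their windows have a common run of 15 bases. It is shown in capitals in the 30 bases around it, from -44 to -15 for ALPP (chr2:232378707-232378736) and ALPG (chr2:232406800-232406829) and from -42 to -13 for ALPI (chr2:232456111-232456140), all plus strand.
ALPP: acagttctCCCTGATTTAAACCCgggcagc
ALPG: acagttttCCCTGATTTAAACCCaggcagc
ALPI: aagtcctcCCCTGATTTAAACCCaggcagc

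Over the aligned bases the windows of ALPP and ALPG were 88.5% identical, those of ALPP and ALPI 79.9% and those of ALPG and ALPI 81.0%. The ALPG window is printed because this gene and ALPP, so alike upstream, had different patterns across the libraries (chr2:232406594-232406842, plus strand, -250 to -2). Capitals mark a run of 64 bases that the ALPP window also holds.
ALPG: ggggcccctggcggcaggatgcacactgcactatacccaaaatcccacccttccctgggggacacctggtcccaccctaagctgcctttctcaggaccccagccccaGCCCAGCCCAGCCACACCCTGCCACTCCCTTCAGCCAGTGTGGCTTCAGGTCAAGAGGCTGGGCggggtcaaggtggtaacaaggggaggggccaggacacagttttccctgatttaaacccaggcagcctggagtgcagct

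Near-identical copies limit what the counts of some of these genes can say. The submitters' counting method is not given in the sources used here, so it is unknown whether reads that match several genes were kept. Every stretch of 50, 100 or 150 bases in the annotated transcripts of each gene was therefore looked up in the transcripts of all other genes (GENCODE release 29, both strands). CGA and ALPL shared 0% at each length. Of 100-base stretches, CGB5 shared 71.4%, CGB8 64.2% and CGB3 62.2%, most of it with each other. CGB7 shared 49.1%, most of it with 2 annotated genes that overlap it. ALPP shared 17.7% and ALPG 15.8%, and ALPI and LHB shared 0%. The main transcripts of CGB5 and CGB8 were 99.5% identical over 841 aligned bases, those of ALPP and ALPG 92.8% over 2462, and those of ALPP and ALPI 87.1% over 2435. Counts of CGB3, CGB5, CGB7 and CGB8 are therefore uncertain gene by gene, and a part of ALPP and ALPG is too.

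**Figure D1:**
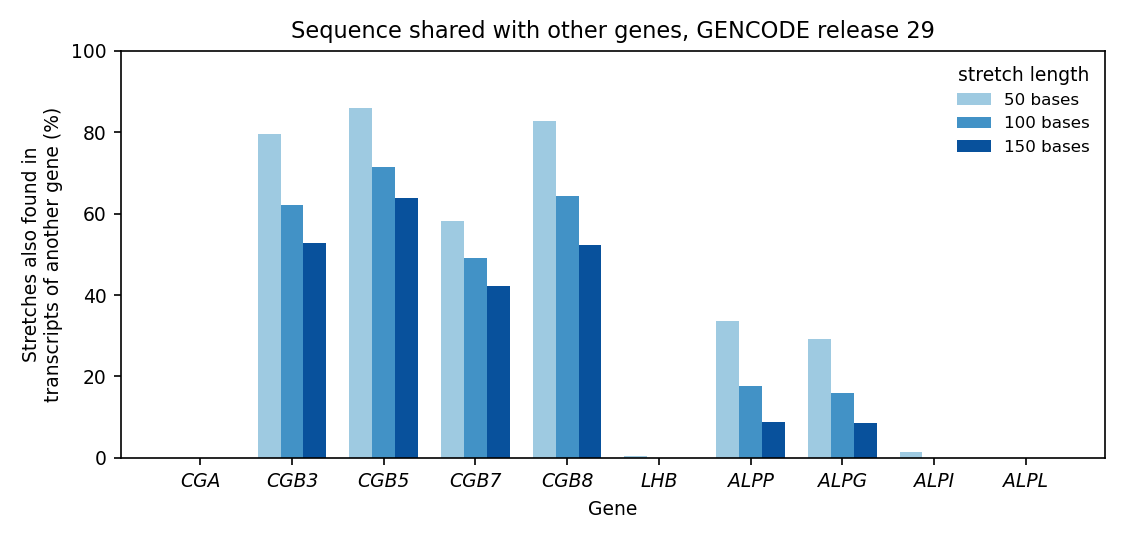
Bars give the share of 50, 100 and 150-base stretches of each gene's annotated transcripts that also occur in transcripts of another gene (vertical axis, %). CGB3, CGB5, CGB7 and CGB8 share most (71.4% of 100-base stretches for CGB5), ALPP and ALPG share 17.7% and 15.8%, and CGA and ALPL share none, as does LHB at 100 bases.

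The libraries were of similar depth, with totals between 14792869 and 16777792 counts. SIX2 itself was at 38.3 and 23.0 CPM (counts per 1000000 counts of the TMM-scaled library) in the libraries labelled SIX2 overexpression, numbered 2 and 1, and at 35.6 and 24.6 CPM in the controls numbered 2 and 1. The groups overlapped, and the measured SIX2 level did not follow the label (log2 fold change 0.02, SE 0.37, adjusted p = 1.00, edgeR quasi-likelihood test). Groups are therefore called by their labels throughout, and "SIX2-labelled" stands for libraries labelled SIX2 overexpression. Log2 CPM had a Pearson correlation across genes of 0.987 between the libraries numbered 2 and 0.991 between those numbered 1, against 0.917 between the SIX2-labelled libraries and 0.916 between the controls (genes are not independent replicates). The labels do not state whether same-group libraries had cultures of their own. Each p-value thus covers only the spread seen between these libraries, which may be technical.

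CGA was among the most abundant transcripts of the libraries numbered 2 and close to absent from those numbered 1. The gene (ENSG00000135346, GRCh38 chromosome 6, 87085498 to 87095406 on the minus strand, with 0 annotated genes overlapping it) had 15528 counts in the SIX2-labelled library and 12612 in the control numbered 2. It had 35 counts in the SIX2-labelled library and 31 in the control numbered 1. The libraries split by number, with no overlap between numbers, while each virus group held 1 high and 1 low library.

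In CPM, CGA was at 983 in the SIX2-labelled library and 753 in the control numbered 2, and at 2.12 in the SIX2-labelled library and 2.07 in the control numbered 1. The mean of the 2 libraries was 868 ± 162 CPM for number 2 and 2.09 ± 0.0382 CPM for number 1 (SD, n = 2 each), a ratio of 414 and a log2 difference of 8.70. In number 2, CGA alone took 0.0965% of all counts of the SIX2-labelled library and 0.0752% of those of the control. By CPM per kilobase it stood at rank 40 and 45 among protein-coding genes of the nucleus in these libraries, and at 10731 and 10761 in the SIX2-labelled and control libraries numbered 1. In number 1 the 95% exact Poisson interval was 1.48 to 2.95 CPM in the SIX2-labelled library and 1.40 to 2.93 CPM in the control. Such an interval lies above 0 for any count above 0, so it cannot tell low expression from stray reads. Counting intervals here and below do not cover variation between samples or PCR copies. In bulk RNA, fewer cells that make a transcript and less of it per cell cannot be told apart, for this gene and all others here.

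In the libraries numbered 2 no beta subunit gene was detected at a level near that of CGA. CGB3 (ENSG00000104827, chromosome 19, 49022869 to 49024333, minus strand) and CGB5 (ENSG00000189052, chromosome 19, 49043884 to 49045311, plus strand) had 0 counts in all 4 libraries. A count of 0 allows a level of up to 3 counts, which is between 0.179 and 0.200 CPM in these libraries. CGB8 (ENSG00000213030, chromosome 19, 49047638 to 49049106, minus strand) had 0 counts in the SIX2-labelled library and 3 in the control numbered 2. It had 1 count in the SIX2-labelled library and 0 in the control numbered 1. If reads that match several of these genes were discarded, the true levels may be higher, which was not tested.

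CGB7 (ENSG00000196337, chromosome 19, 49054275 to 49058860, minus strand) had 4 counts in the SIX2-labelled library and 7 in the control numbered 2, and 5 in the SIX2-labelled library and 2 in the control numbered 1. Its annotated exons span 3386 bases, against 877 in CGB3, and 2 other annotated genes on the same strand overlap it. The 4 gonadotropin beta genes together had 4 and 10 counts in the SIX2-labelled and control libraries numbered 2. In number 1 they had 6 and 2 counts. Summed per kilobase, the beta genes were at 0.0748 and 0.326 CPM per kilobase in the SIX2-labelled and control libraries numbered 2, where CGA was at 430 and 330 CPM per kilobase. In number 1 the beta genes were at 0.158 and 0.0394 CPM per kilobase, with CGA at 0.928 and 0.905. The genes differ in shared sequence, so these sums are lower limits if shared reads were discarded.

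LHB (ENSG00000104826, chromosome 19, 49015980 to 49017091, minus strand) had 3 counts in the SIX2-labelled library and 9 in the control numbered 2. It had 6 counts in the SIX2-labelled library and 8 in the control numbered 1. The SIX2-labelled libraries were both below the controls, without overlap, but the counting intervals overlapped (0.0391 to 0.555 CPM and 0.246 to 1.02 CPM in number 2). LHB overlaps RUVBL2, a helicase gene on the opposite strand with 1446 to 1572 counts per library. The genes overlap only at their ends, as RUVBL2 stops at base 49015995. Without a stated strand setting, reads of this short overlap cannot be assigned. LHB and CGB3, CGB5, CGB7 and CGB8 did not pass the filter on low counts, and no test was run on them.

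Of 12 further genes of hormone subunits and receptors, 2 were tested and 7 had 0 counts in every library: CGB1, CGB2, the thyrotropin and follitropin beta genes TSHB and FSHB, the thyrostimulin subunit GPHB5, and the receptor genes LHCGR and FSHR. The thyrotropin receptor gene TSHR had 1 and 2 counts in the SIX2-labelled and control libraries numbered 2 and 0 in number 1. INHA, the inhibin alpha subunit, was at 26.5 and 17.2 CPM in the SIX2-labelled and control libraries numbered 2, and at 4.79 and 5.80 CPM in number 1. It rose in number 2, with a log2 difference of 2.04, an SE of 0.22 and an adjusted p of 1.09e-05 (edgeR quasi-likelihood test). GNRH1, which encodes gonadotropin-releasing hormone, was at 3.86 and 3.52 CPM in number 2 and 3.27 and 2.07 CPM in number 1 (adjusted p = 0.261, edgeR). The comparison of numbers on genes other than the 10 was prompted by earlier results of these data, and 43.8% of all 16343 tested genes passed it, 22.2% higher and 21.6% lower in number 2.

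**Figure D2:**
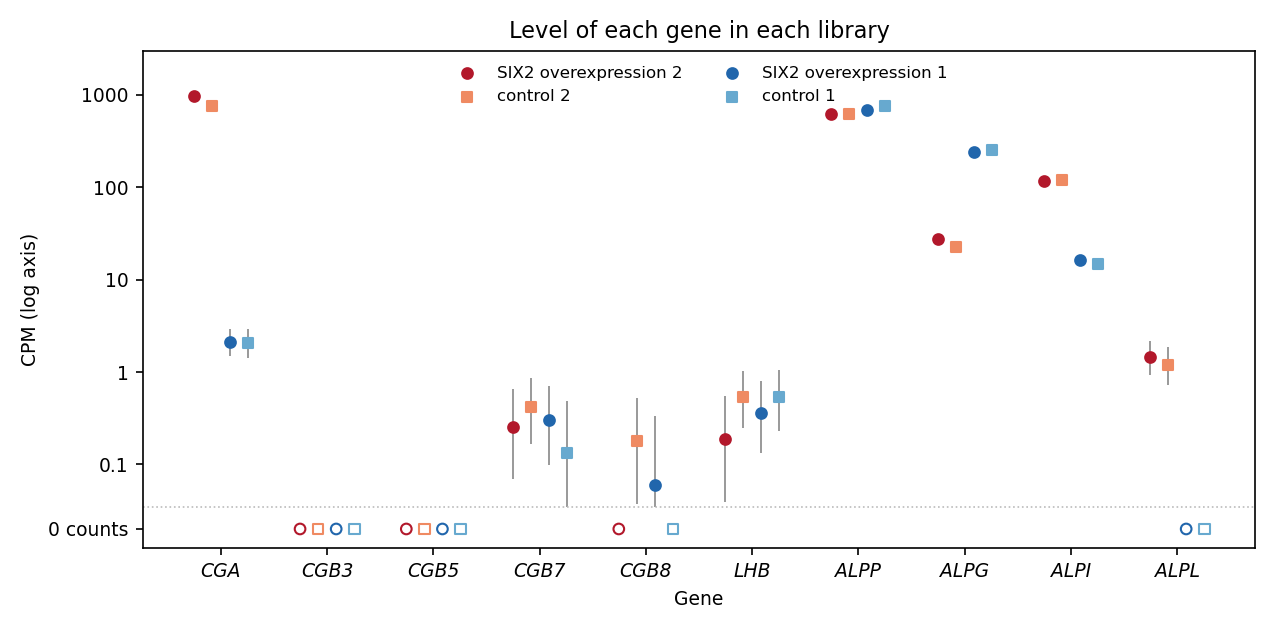
Points give the CPM of each gene (horizontal axis) in each library on a log axis, with 95% exact Poisson intervals for counting error, cut at the dotted line. Open symbols below the line are libraries with 0 counts. CGA and ALPI are high in both libraries numbered 2 (red and orange), ALPG in both numbered 1 (blue), ALPP lies between 622 and 757 CPM in all, and the beta subunit genes stay below 1 CPM.

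The alkaline phosphatases differed between numbers in their make-up, while the placental form held most of the counts in all 4 libraries. ALPP (ENSG00000163283, chromosome 2, 232378534 to 232382889, plus strand) was at 622 and 625 CPM in the SIX2-labelled and control libraries numbered 2. It was at 687 and 757 CPM in the SIX2-labelled and control libraries numbered 1. The libraries numbered 2 were both below those numbered 1, by 0.21 on the log2 scale. With 9822 to 11363 counts per library, ALPP held rank 117, 97, 79 and 72 per kilobase among protein-coding genes of the nucleus, in the order SIX2-labelled 2, control 2, SIX2-labelled 1 and control 1. The antisense gene AC068134.1, which overlaps ALPP, had at most 2 counts in a library.

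ALPG (ENSG00000163286, chromosome 2, 232406843 to 232410714, plus strand) begins 23953 bases beyond the end of ALPP and went the other way from ALPI. It was at 27.8 and 22.7 CPM in the SIX2-labelled and control libraries numbered 2, and at 241 and 254 CPM in the SIX2-labelled and control libraries numbered 1. The mean was 25.3 ± 3.65 CPM for number 2 and 248 ± 9.09 CPM for number 1 (SD, n = 2 each), so the level was 9.80-fold higher in number 1. Both libraries of a number lay on the same side.

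ALPI (ENSG00000163295, chromosome 2, 232456123 to 232460032, plus strand) lies a further 45408 bases beyond ALPG. It was at 118 and 119 CPM in the SIX2-labelled and control libraries numbered 2, and at 16.4 and 14.6 CPM in the SIX2-labelled and control libraries numbered 1. The mean was 118 ± 0.897 CPM for number 2 and 15.5 ± 1.29 CPM for number 1 (SD, n = 2 each), a ratio of 7.63. Neighbouring phosphatase genes on the same strand therefore had opposite differences between numbers. Of the 50-base stretches of ALPI only 1.45% occurred in other genes, and of the 100-base stretches none.

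ALPL (ENSG00000162551, chromosome 1, 21509372 to 21578412, plus strand), the gene outside the cluster, had 23 and 20 counts in the SIX2-labelled and control libraries numbered 2 and 0 in both libraries numbered 1. That is 1.46 CPM (95% interval 0.923 to 2.18) and 1.19 CPM (0.729 to 1.84) in number 2. Their mean was at least 6.94-fold higher than in number 1, where the floor is 3 counts per library. It was the lowest of the detected phosphatase genes.

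The share of each gene in the phosphatase counts followed the number. ALPP held 80.9% (95% exact binomial interval 80.2 to 81.6) and 81.4% of them in the SIX2-labelled and control libraries numbered 2, and 72.7% and 73.8% in those numbered 1. ALPG held 3.62% (3.30 to 3.97) and 2.95% (2.67 to 3.26) in number 2, and 25.5% (24.9 to 26.2) and 24.8% (24.1 to 25.4) in number 1. ALPI held 15.3% (14.7 to 16.0) and 15.5% (14.9 to 16.1) in number 2, and 1.74% (1.54 to 1.96) and 1.42% (1.24 to 1.62) in number 1. Summed over the 4 genes, phosphatase counts came to 768 CPM in each library numbered 2, and to 944 and 1026 CPM in the SIX2-labelled and control libraries numbered 1.

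**Figure D3:**
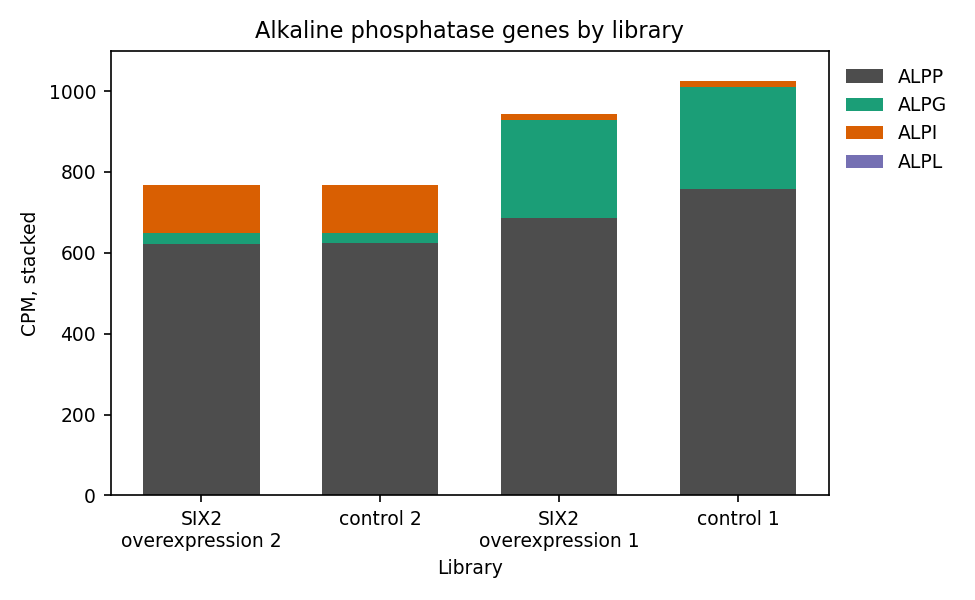
Stacked bars give the CPM of ALPP, ALPG, ALPI and ALPL in each library (ALPL, at most 1.46 CPM, is too small to see). ALPP fills most of every bar, the remainder is mainly ALPI in the libraries numbered 2 and mainly ALPG in those numbered 1.

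Per kilobase of annotated exons, the order of the genes differed between numbers. In the libraries numbered 2 CGA came first (430 and 330 CPM per kilobase in the SIX2-labelled and control libraries), before ALPP (203 and 204), ALPI (44.7 and 45.2) and ALPG (11.2 and 9.10). In number 1 ALPP came first (224 and 248), before ALPG (96.7 and 102), ALPI (6.24 and 5.55) and CGA (0.928 and 0.905). LHB followed CGA in number 1 at 0.577 and 0.846 CPM per kilobase, from 6 and 8 counts, and in both libraries its counting interval overlapped that of CGA. Below them, ALPL in number 2 (0.484 and 0.397), LHB in number 2 (0.301 and 0.853) and CGB7 in all libraries (0.0394 to 0.123) rest on 2 to 23 counts. The counting intervals of ALPL and LHB overlapped in both libraries numbered 2.

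Between the SIX2-labelled libraries and the controls, the comparison the design asks for, none of these genes was called. All 5 that passed the filter on low counts had an adjusted p of 1.00 (edgeR's quasi-likelihood fit, with the virus group as its single term), and 0% of the 16343 tested genes were called. Without adjustment 12 of all tested genes (0.0734%) had a p under 0.05, and none of the 5 did. DESeq2 also called 0 genes, with 7 (0.0226%) under 0.05 before adjustment. CGA was at 492 ± 693 CPM in the SIX2-labelled libraries and 377 ± 531 CPM in controls (SD, n = 2 each), a log2 fold change of 0.38 with an SE of 2.86. ALPP was at 654 ± 46.0 and 691 ± 93.4 CPM in SIX2-labelled and control libraries, a log2 fold change of -0.08 (SE 0.21). The log2 fold changes of ALPG, ALPI and ALPL were -0.04 (SE 1.42), 0.00 (SE 1.28) and 0.26 (SE 2.18). ALPL has 0 counts in number 1, so its value rests on 1 library per group. Each group holds 1 library of either number, and the fit without a term for number carries their difference in its error. At these errors a change of a few fold in CGA, ALPG, ALPI or ALPL was not detectable. Of the 10 genes only LHB did not overlap between groups, against 11.8% of the tested genes.

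Each number has 1 library of either group, so the ratios have no replicate check and compare libraries, with intervals for counting error only. CGA was 1.31-fold higher (95% interval 1.27 to 1.34) in the SIX2-labelled library than in the control numbered 2, and the ratio was 1.03 (0.615 to 1.72) in number 1. ALPP had a ratio of 0.994 (0.967 to 1.02) in number 2 and 0.906 (0.883 to 0.930) in number 1. ALPG had a ratio of 1.23 (1.07 to 1.41) in number 2 and 0.949 (0.908 to 0.993) in number 1. For ALPI the ratios were 0.989 (0.928 to 1.05) and 1.12 (0.938 to 1.35), and for ALPL the ratio in number 2 was 1.22 (0.640 to 2.34). All of these are small beside the differences between numbers of CGA, ALPG and ALPI.

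**Figure D4:**
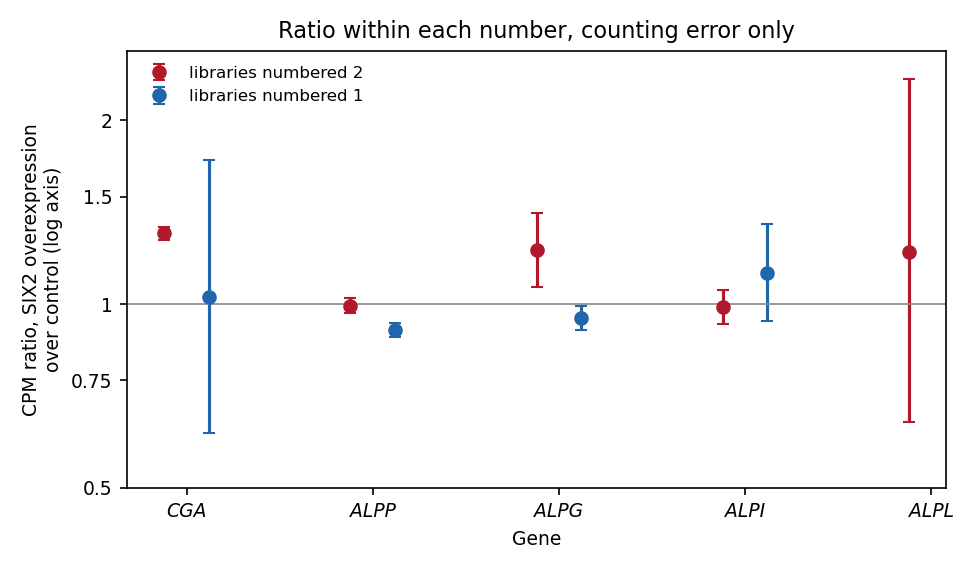
Points give the CPM ratio of the SIX2-labelled library over the control within each number, on a log axis, with 95% exact binomial intervals for counting error only. Ratios lie between 0.906 and 1.31, and ALPL has no ratio in number 1, where both libraries had 0 counts.

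The genes around CGA did not share its pattern. Within 250000 bases of CGA 15 other genes are annotated and 2 passed the filter, of which 0 were called between numbers (43.8% of all tested genes were). ZNF292, a zinc finger gene, was at 32.6 and 46.4 CPM in the SIX2-labelled and control libraries numbered 2 and 42.6 and 39.0 CPM in number 1 (log2 difference -0.05, SE 0.15, adjusted p = 0.834, edgeR). SMIM8 was at 6.96 and 6.80 CPM in number 2 and 6.06 and 6.53 CPM in number 1 (0.13, SE 0.21, adjusted p = 0.655, edgeR).

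Around ALPP, ALPG and ALPI 21 other genes are annotated and 8 were tested. Of these 2 were higher and 1 was lower in number 2 (43.8% of all tested genes were called). GIGYF2, a regulator of translation, was the lower one, at 59.5 and 64.4 CPM in the SIX2-labelled and control libraries numbered 2 and 87.2 and 82.9 CPM in number 1 (log2 difference -0.46, SE 0.11, adjusted p = 0.00427, edgeR). The cap-binding gene EIF4E2 (-0.18), the exonuclease gene DIS3L2 (-0.34) and TIGD1 (0.47) did not pass (adjusted p = 0.238, 0.0533 and 0.0534, edgeR). The 2 higher genes, named after their values were seen, were the protease gene PRSS56, with a log2 difference of 4.25 (SE 0.43), and EFHD1, with 1.69 (SE 0.22). PRSS56 starts 60431 bases beyond the end of ALPI, and a link between these genes was not tested. Around the beta subunit cluster on chromosome 19, 14 of 42 other genes were tested, 5 higher and 1 lower (43.8% of all tested genes were called). Among the higher ones was the ferritin light chain gene FTL (log2 difference 0.90, SE 0.11, adjusted p = 2.15e-05, edgeR). Around ALPL 7 of 17 were tested, 1 higher and 1 lower (again beside 43.8% of all tested genes), with no log2 difference beyond 0.81 in size.

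**Figure D5:**
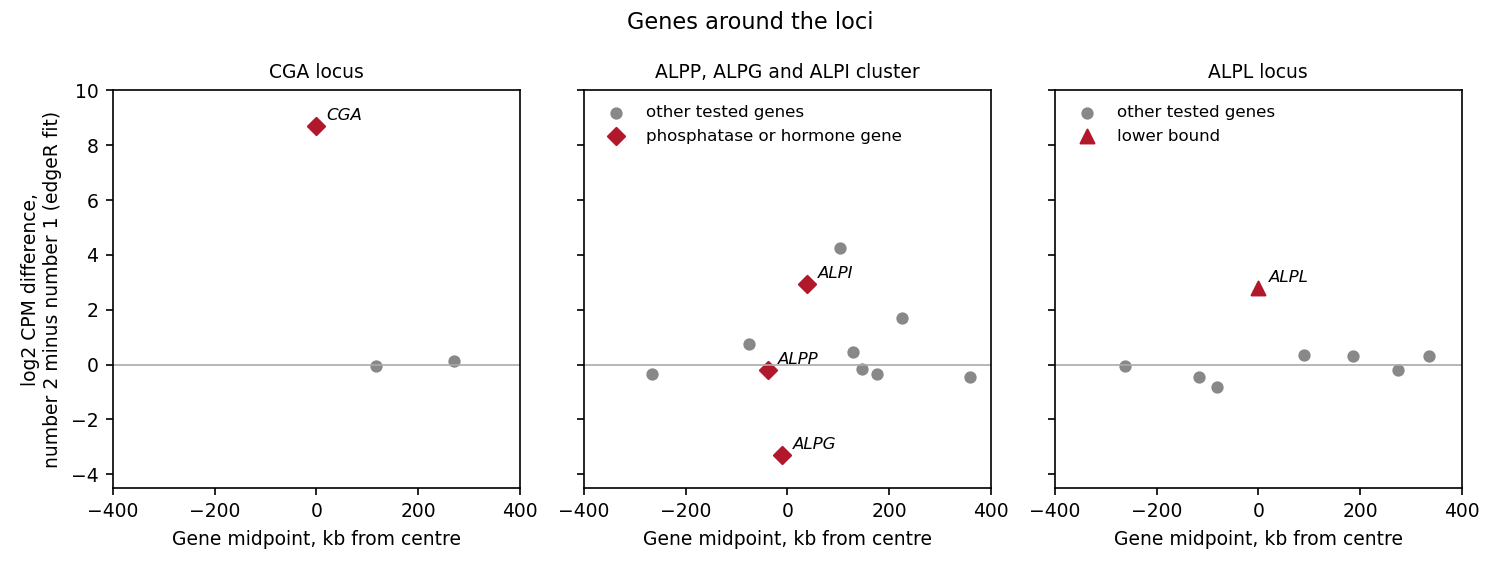
Each point is a tested gene around CGA, the phosphatase cluster or ALPL, placed by the distance of its midpoint from the centre of the locus (kb) and by the log2 difference between the libraries numbered 2 and 1 (edgeR fit). CGA stands at 8.69 beside neighbours near 0, ALPG at -3.29 and ALPI at 2.93 lie in the same cluster as ALPP at -0.21, and the triangle for ALPL is a lower bound.

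Genes of the hormone's known control and processing were mixed. Of 24 transcription factors known to act on CGA or the beta genes in trophoblast or pituitary cells, 18 were tested, with 0 higher and 8 lower in number 2. Over all tested genes 43.8% were called, 22.2% higher and 21.6% lower. The median log2 difference of the factors was -0.34, against 0.01 over all tested genes. The AP-2 alpha factor TFAP2A was at 116 and 117 CPM in the SIX2-labelled and control libraries numbered 2 and 99.1 and 101 CPM in number 1 (adjusted p = 0.101, edgeR). The pituitary factor PITX1 (log2 difference -0.24), TEAD1 (0.31) and SP1 (-0.12) did not pass either (adjusted p = 0.0933, 0.0848 and 0.423, edgeR). CEBPB fell by 1.02 on the log2 scale (SE 0.13) and ETS2 fell by 0.42 (SE 0.11) in number 2 (adjusted p = 3.85e-05 and 0.00579, edgeR). The other called factors were JUN (-2.28), POU5F1 (-1.36), PPARG (-0.88), DLX3 (-0.64), ETS1 (-0.57) and TFAP2C (-0.43). GCM1, the trophoblast fusion factor, had 7 counts in the SIX2-labelled library numbered 2 and at most 1 in any other, and GATA3 had at most 3.

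Of 36 genes of cyclic AMP signalling and CREB, 32 were tested, 8 higher and 8 lower in number 2 (43.8% of all tested genes were called). Their median log2 difference was -0.07. GNAS, the stimulatory G protein, was at 1445 and 1279 CPM in the SIX2-labelled and control libraries numbered 2 and 1306 and 1222 CPM in number 1 (adjusted p = 0.464, edgeR). The phosphodiesterase PDE3A, which breaks down cyclic AMP, rose by 1.60 (SE 0.12, adjusted p = 3.27e-07) and the inhibitory G protein GNAI2 by 0.40 (SE 0.10, adjusted p = 0.00728, edgeR). The log2 differences of PDE4D, the coactivator CRTC3 and the kinase subunit PRKAR1A were 0.10, -0.10 and 0.08 (adjusted p = 0.519, 0.466 and 0.597, edgeR). CREB1, named after its values were seen, was at 32.8 and 36.1 CPM in number 2 and 53.4 and 48.0 CPM in number 1, and fell by 0.56 (SE 0.12, adjusted p = 0.00228, edgeR). The other called genes of the list went both ways. Higher in number 2 were ADCY1 (5.54), ADCY5 (1.94), CRTC1 (1.16), PDE7A (0.82), PRKACB (0.58) and ADCY6 (0.35). Lower were ADCY7 (-1.46), CREB5 (-1.35), ATF3 (-0.99), PDE4A (-0.95), PRKAR2A (-0.38), CREB3 (-0.37) and PDE8A (-0.33).

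Of 27 genes of glycoprotein folding, glycosylation and secretion 22 were tested, 6 higher and 4 lower (43.8% of all tested genes were called). Their median was -0.06. The chaperones HSPA5 and CALR fell by 0.35 and 0.31 in number 2 (SE 0.11 each, adjusted p = 0.0241 and 0.0410, edgeR), and the glycosyltransferase GALNT2 rose by 0.32 (SE 0.10, adjusted p = 0.0244). CANX, HSP90B1 and PDIA3 had log2 differences of -0.26, -0.05 and -0.06 (adjusted p = 0.0729, 0.769 and 0.717, edgeR). The other called genes of this list had larger differences in both directions. Higher in number 2 were CPE (6.26), ST6GAL1 (2.77), MGAT4A (1.17), P4HB (0.64) and MGAT5 (0.40), and lower were B4GALNT4 (-2.66) and MGAT1 (-0.96). Of 37 genes of phosphate and pyrophosphate handling and of the lipid anchor that holds phosphatases at the membrane 32 were tested. Of these 8 were higher and 9 lower (43.8% of all tested genes were called), with a median of 0.13. The phosphate importer SLC20A1 was at 154 and 158 CPM in the SIX2-labelled and control libraries numbered 2 and 344 and 340 CPM in number 1. The pyrophosphate exporter ANKH was at 179 and 203 CPM in number 2 and 88.9 and 85.1 CPM in number 1. Their log2 differences were -1.13 (SE 0.10) and 1.14 (SE 0.11), both called. The anchor transfer subunit PIGT fell by 0.77 (SE 0.10) and BMP2, a growth factor of bone, fell by 0.64 (SE 0.11), while the anchor gene GPAA1 (0.07) and the pyrophosphatase PPA1 (0.15) did not pass (adjusted p = 0.674 and 0.428, edgeR). Between the virus groups 0 genes of any of these lists were called by edgeR, and 0 had an unadjusted p under 0.05. That fit has no term for number, and in it 0% of all 16343 tested genes were called and 0.0734% were under 0.05 before adjustment. The 0 is therefore no result about these lists. With number as a term 3.07% of all tested genes were under 0.05 before adjustment, and the lists were not counted in that fit.

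Of 50 other trophoblast and placental genes, 20 were tested, 4 higher and 7 lower in number 2 (43.8% of all tested genes were called). Their median log2 difference was -0.01. The remaining tested genes did not pass, and 15 of the 50 had 0 counts in every library. The imprinted gene PEG10 rose by 1.15 (SE 0.17) and S100P by 0.94 (SE 0.16), whereas KRT7 fell by 0.61 (SE 0.15), SDC1 fell by 0.66 (SE 0.11) and PLAC8 fell by 1.10 (SE 0.19) in number 2 (adjusted p from 0.000138 to 0.00529, edgeR). VGLL3 did not pass (0.08, adjusted p = 0.643). Of the 14 trophoblast markers, CYP19A1, CSH1, PAGE4 and VGLL1 were at 0, ERVW-1, ERVFRD-1, GCM1, GATA3, PSG1 and HSD3B1 had at most 15 counts, and PLAC1 had 14 to 28. The AP-2 genes TFAP2A and TFAP2C and KRT7 had 367 counts or more. The summed level of the list was 724 and 535 CPM in the SIX2-labelled and control libraries numbered 2 and 880 and 874 CPM in number 1, most of it KRT7, which other epithelia also express. Germ cell markers were at 11.7 and 11.9 CPM in sum in number 2 and 17.9 and 15.5 CPM in number 1, with NANOG, SOX2, DDX4, DAZL and DPPA3 at 0. SOX17 had 71 and 85 counts in the SIX2-labelled and control libraries numbered 2 and 0 in number 1, and POU5F1 was at 6.64 and 6.33 CPM in number 2 and 17.9 and 15.3 CPM in number 1. Of the 7 pituitary markers PRL, GH1, TSHB, FSHB and POU1F1 were at 0, and PITX1, at 93.7 to 120 CPM, gave nearly all of the list's sum.

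Markers of the labelled cell type were present in part. The epithelial keratin KRT8 was at 3543 and 2714 CPM in the SIX2-labelled and control libraries numbered 2 and at 1704 and 1731 CPM in number 1. KRT18, its partner, had 1536 CPM in the SIX2-labelled library and 1166 CPM in the control numbered 2, against 762 and 805 CPM in number 1. The summed level of all 13 gastric and epithelial markers was 5373 and 4105 CPM in number 2 and 2749 and 2798 CPM in number 1. Most of that sum was KRT8 and KRT18. Of the 10 tested markers 2 were higher and 3 lower in number 2 (43.8% of all tested genes were called). Their median log2 difference was -0.15, and the lower ones were CDH17 (-6.96), TFF1 (-2.46) and CDH1 (-1.67). The mucin MUC1 was at 265 and 191 CPM in the SIX2-labelled and control libraries numbered 2 and 225 and 204 CPM in number 1, and the gastric mucin MUC5AC was at 7.21 to 15.3 CPM in all. KRT19 had at most 2 counts in a library, EPCAM was at 8.89 to 12.2 CPM, and CDH1 was at 8.04 and 5.31 CPM in the SIX2-labelled and control libraries numbered 2 and 20.4 and 21.9 CPM in number 1. CDH17 had 1 and 0 counts in the SIX2-labelled and control libraries numbered 2, against 81 and 70 in number 1. The gastric secretory genes TFF2 and GKN1 had at most 7 and 20 counts. Fibroblast markers summed to 280 and 289 CPM in number 2, nearly all COL1A1, and to 137 and 122 CPM in number 1, where LUM and DCN added to COL1A1. Of 5 tested, COL1A1 (2.32) and PDGFRB (2.02) were higher and LUM (-9.36) and DCN (-4.95) lower in number 2 (43.8% of all tested genes were called). COL3A1 had at most 17 counts, COL1A2 at most 1 and PDGFRA 0. Immune markers were at 0.0633 CPM or less in sum, and endothelial markers at 8.60 to 13.4 CPM. Most of the endothelial sum was CDH5 (7.67 to 11.8 CPM), and VWF and PECAM1 had at most 16 and 10 counts in a library. The part of any of these differences in the values of CGA and the phosphatases was not tested.

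The genes most like CGA, ALPG and ALPL across the 4 libraries were ranked by the Euclidean distance of log2 CPM (prior count 2) centred on each gene's mean, among 10663 protein-coding genes at 5 CPM or more. This is a description over 4 libraries, which share the split by number. Where a gene has 0 counts its profile there is set by the prior count, as for ALPL, SLFN11, ADAM12 and HS6ST2 in number 1, so distances that involve these genes depend on it. Nearest to CGA were SLFN11, ADAM12, SESN3, HS6ST2 and SEL1L3, at distances of 0.39 to 1.01. ADAM12, a metalloprotease gene of the placental list, was at 53.8 and 65.6 CPM in the SIX2-labelled and control libraries numbered 2. It had 0 counts in number 1. Of the tested genes of that list 4 were higher and 7 lower in number 2, among the lower TFPI2 (-2.33) and INHBA (-4.24). Nearest to ALPG were the metalloprotease gene MMP14, RASEF, the cytokine subunit gene EBI3, MAML3 and TRIM31, at 0.11 to 0.30. MMP14 was at 6.20 and 4.60 CPM in number 2 and 53.4 and 53.0 CPM in number 1. Nearest to ALPL were SH3KBP1, ARHGAP44, GAS1, MAGEA11 and ENPP1, at 0.18 to 0.28. ENPP1, which makes the pyrophosphate that the ALPL enzyme breaks down, was at 31.7 and 29.9 CPM in number 2 and 3.03 and 3.07 CPM in number 1.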

How the data were processed

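RNA-seq counts of 4 libraries were used. Per the labels' protocols, RNA was extracted with Trizol and libraries were made with an Illumina TruSeq kit. The authors deposited whole-number counts per gene, not normalized. The sources used here give no aligner, counter or strand use. Of builds, only mm9 (mouse) appears in the submitters' processing notes. All 58735 identifiers are, however, in human GENCODE release 29 (GRCh38), 58724 with the same start and end, and coordinates follow the files. Tests used edgeR 4.0.16 under R 4.3.3 (filterByExpr, TMM factors, quasi-likelihood test, Benjamini-Hochberg adjustment over 16343 tested genes, threshold 0.05) and tested on simulated data. DESeq2 1.42.0 was an alternative. SEs come from the F statistic. Sequences come from RefSeq (GRCh38.p14) and GENCODE, aligned with Biopython 1.88.

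The genes and gene lists were chosen with earlier results of these data known. Named were these 10 genes, SIX2, in each list the 6 tested genes with the highest mean CPM, near each cluster the 4 highest protein-coding genes, and the 5 most alike genes; other genes printed were chosen after their values were seen.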

Additional observations from a re-analysis of the deposited data

Results flagged for a closer look

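ALPG had opposite ratios of the SIX2-labelled library over the control in the 2 numbers: 1.23 in number 2 and 0.949 in number 1, each with a 95% counting interval that excludes 1. With 1 library per group and number, the difference between these ratios was not tested against variation between samples.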

How the results depend on the processing

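The count of genes called between the virus groups was 0 with TMM or DESeq2 size factors, by DESeq2, without the filter on low counts and without any single library. With title number as a term (replicate block) it was 8 of 16343, none of them among the 5 tested genes described here. Same-numbered libraries deviated together from their group means (Pearson r = 0.865 across genes), but with only 2 numbers and no label that explains them the samples are not taken as paired. Of 40 alternative values of the 5 log2 fold changes between groups, 10 had the opposite sign and none was called. The replicate block gave 0.091 for ALPG. Leaving out 1 library gave -7.47 to 7.91 for CGA, -0.21 to 0.068 for ALPP, -2.32 to 2.57 for ALPG, -2.03 to 2.21 for ALPI and -6.30 to 6.54 for ALPL. By construction such fits leave the numbers unbalanced. Where a group then holds only a library with 0 counts of ALPL, the value for ALPL depends on the prior count. The log2 differences between numbers, by which the genes were chosen, were 8.49 to 8.87 for CGA, -3.45 to -3.15 for ALPG, 2.85 to 3.02 for ALPI and -0.28 to -0.14 for ALPP without 1 library. Of 126 tested genes in the 6 pathway lists, 63 were called between numbers, where 43.8% of all tested genes were called. Low counts limit the beta subunit genes, LHB and ALPL.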

Other observations

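Genes with cyclic AMP response elements before a RefSeq start were called in both directions between numbers. Of 355 tested genes with TGACGTCA in the 250 bases before a start, 92 were higher and 81 lower in the libraries numbered 2 than in those numbered 1 (48.7% called by edgeR's quasi-likelihood test, against 43.8% of all tested genes). Of the 11 tested genes with the motif at 2 or more positions, 5 were higher and 2 lower (63.6% called). The median log2 difference was 0.05 for 1 or more positions and 0.14 for 2 or more. Whether the motif bears on the level of CGA was not tested.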
